A study of Sus scrofa with 4 samples.

Results

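The DNA methyltransferase genes of the pig were followed in M II oocytes, the mature egg arrested at metaphase of the second meiotic division. The rows whose gene symbol begins with DNMT were taken from a table of read counts, which gave 3 of the 4381 genes listed, DNMT1, DNMT3A and DNMT3B. DNMT1 and DNMT3B were chosen by their measured shares of counts in these same libraries, so their levels and differences are given as a description with no test. Where values are given in pairs, library 1 of a group comes before library 2. All 3 genes passed the filter on low counts that left 2387 genes tested.

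RNA was sequenced from 4 libraries, 2 of control and 2 of SIRT6-inhibited oocytes. SIRT6 is a deacetylase of histones and other proteins, and SIRT6-IN-1 is a cell-permeable inhibitor of its activity. Control library 1 held 4646129 counts on the listed genes and control library 2 held 3405960, against 3239200 in SIRT6-inhibited library 1 and 4972602 in SIRT6-inhibited library 2, so a share here is a share of those counts and not of all transcripts of the oocyte. Oocytes of both groups came from abattoir ovaries and were matured in vitro with their cumulus cells for 42 to 44 h in medium with porcine follicular fluid, growth factor and gonadotropins. The medium of the SIRT6-inhibited group also held SIRT6-IN-1 at 100 μM, the concentration kept after a comparison of doses, dissolved in DMSO that made up at most 0.1% of the medium, and no source used here says whether the control medium held DMSO. The inhibitor was present while the cumulus cells were still attached, so both cell types were exposed. A group was a pool of 100 collected oocytes, and no source used here gives the number of animals or the oocytes in each library, or says that the libraries of a group came from separate cultures, so p-values measure only the spread between these samples, which may be technical.

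DNA methyltransferases add a methyl group to cytosine, mostly where a guanine follows. DNMT1 copies the pattern of the parental strand onto the newly made strand after replication, whereas DNMT3A and DNMT3B place methyl groups on DNA that has none. In mammals the methylation of the egg is laid down while the oocyte grows, and the M II oocyte, which makes little or no new RNA, carries stored transcripts that serve the early embryo.

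DNMT1, the maintenance enzyme, is placed by RefSeq on chromosome 2 of the pig assembly Sscrofa11.1, from 68981564 to 69040364. DNMT3B is on chromosome 17 from 36345715 to 36386076, and DNMT3A is on chromosome 3 from 113501972 to 113609148. These positions are those of the annotation, since the counts carry symbols only, and the build behind the counts is uncertain because the submitters' processing notes name a pig and a mouse build with no role. Transcript lengths were not used here, so the counts of different genes are not compared as numbers of molecules.

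The counts of DNMT1 were 826331 in control library 1 and 642498 in control library 2, against 614142 in SIRT6-inhibited library 1 and 932804 in SIRT6-inhibited library 2. As a share of the library these were 17.79% (95% Wilson interval 17.75% to 17.82%) and 18.86% (18.82% to 18.91%) for control, against 18.96% (18.92% to 19.00%) and 18.76% (18.72% to 18.79%) for SIRT6-inhibited oocytes. Control library 1 had the lowest share, and control library 2 lay between the SIRT6-inhibited libraries, so the groups overlapped in this measure. Such intervals hold for counting error alone, since copies made by amplification are counted again, and they were far narrower than the gap between the control libraries. The mean share was 18.3% ± 0.763 (SD, n = 2) in control and 18.9% ± 0.142 (SD, n = 2) in SIRT6-inhibited oocytes.

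Scaling of the totals decided whether the groups of DNMT1 overlapped. In normalized CPM, the counts per 1000000 of a total scaled by the TMM method so that most genes match between libraries, DNMT1 had 178415 and 180869 for control, against 190805 and 194280 for SIRT6-inhibited oocytes. Both SIRT6-inhibited libraries were then above both control libraries, unlike in the shares. The fold between a SIRT6-inhibited and a control library was between 1.05 and 1.09 in normalized CPM and between 0.994 and 1.07 in shares. The log2 fold change of DNMT1 was 0.10 with a standard error of 0.06, and it was 0.04 when libraries were scaled by their totals only. Without control library 1 the difference in mean share on the log2 scale was -0.00036, against 0.04 with all 4 libraries. In bulk samples such as these, a change in the number of cells of a type and a change in RNA per cell cannot be told apart.

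**Figure D1:**
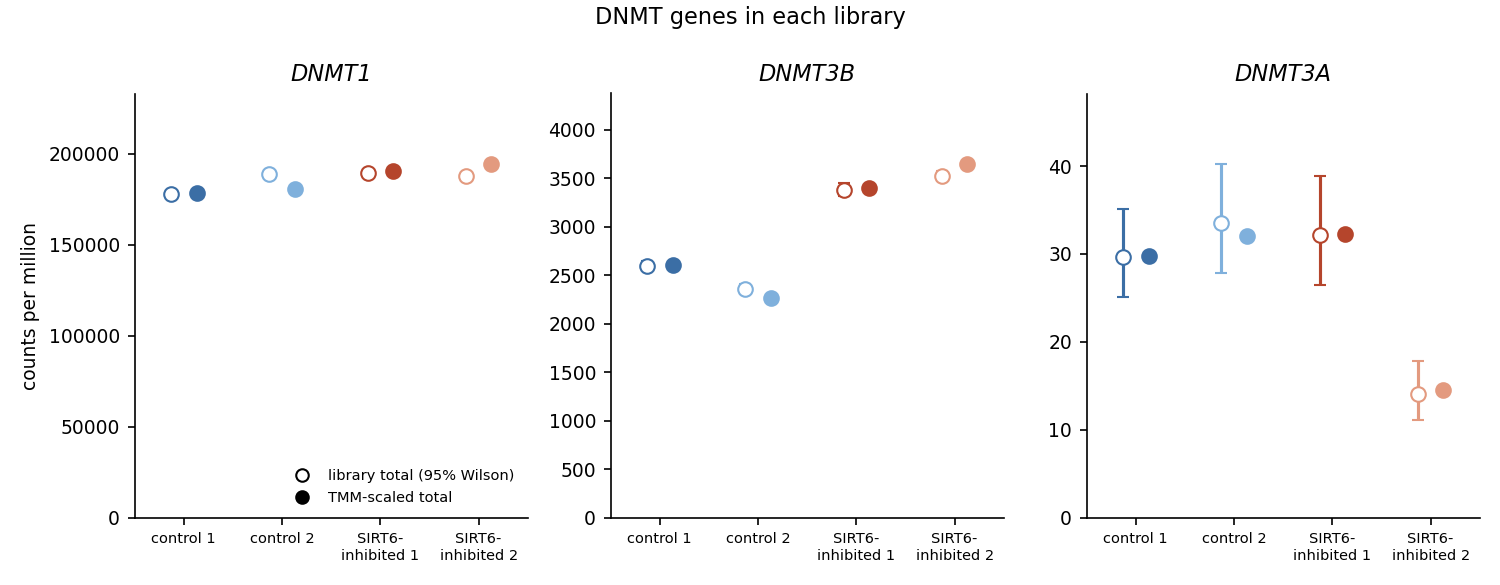
CPM of DNMT1, DNMT3B and DNMT3A in each of the 4 libraries, relative to the library total (open points, bars are 95% Wilson intervals for counting error) and to the TMM-scaled total (filled points), with each vertical axis starting at 0. Both SIRT6-inhibited libraries were above both control libraries for DNMT3B on either scale, for DNMT1 only on the TMM scale, and for DNMT3A on neither scale.

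DNMT1 was the gene with the most counts in every library. The 10 genes with the highest mean shares took between 35.7% and 37.3% of the counts of a library, and 9 of them are described here. After DNMT1 came WEE2, an oocyte kinase that restrains CDK1, with a mean share of 4.33%, KPNA7, an importin of oocytes, with 2.75%, and H1FOO, the linker histone of oocytes, with 2.32%. Then came BMP15, a growth factor secreted by oocytes, PCNA, the sliding clamp of replication, HAS3, a hyaluronan synthase, ID3, an inhibitor of helix-loop-helix factors, and FDFT1, which makes squalene, with mean shares between 0.963% and 1.81%. The spread over all 4 libraries, as a coefficient of variation of normalized CPM, was 4.11% for DNMT1, the lowest of these 9 genes, and 11.6% for ID3, the highest. In both SIRT6-inhibited libraries 4 of the 9 genes, DNMT1 among them, were above both control libraries in normalized CPM, as were 17.9% of all tested genes. Of the 8 genes other than DNMT1, 2 reached p under 0.05 before adjustment in edgeR's quasi-likelihood test, namely WEE2 (log2 fold change 0.23, standard error 0.08) and HAS3 (0.20, standard error 0.08), against 9.05% of all tested genes. With Benjamini-Hochberg adjustment over all tested genes edgeR's quasi-likelihood test gave them adjusted p = 0.487 and 0.534.

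**Figure D2:**
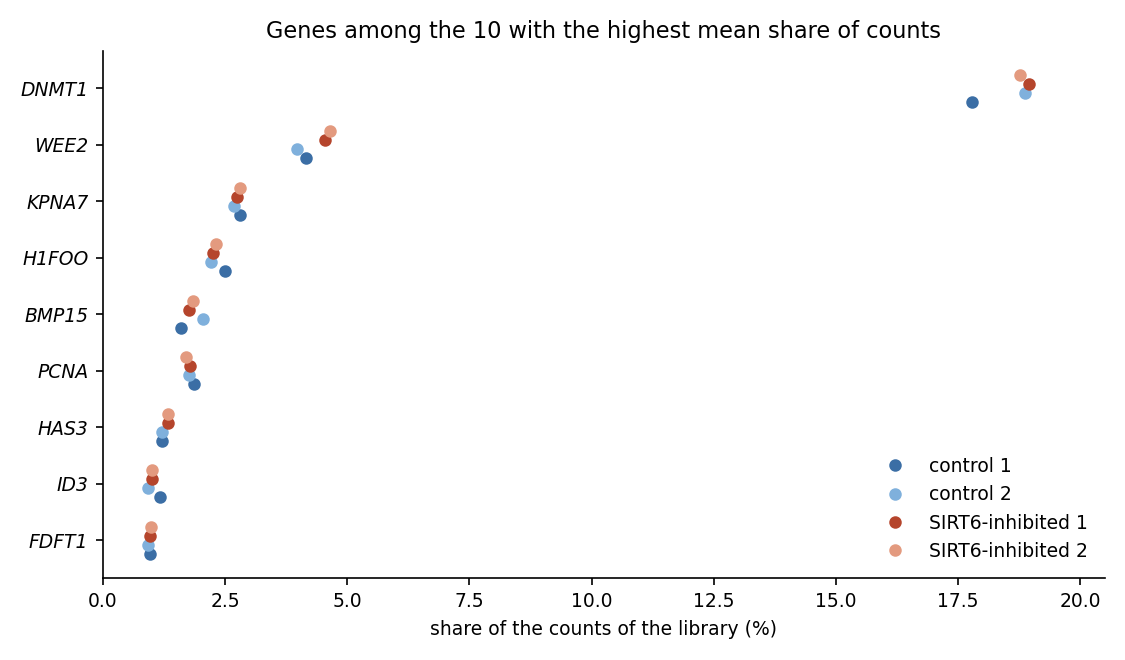
Share of the counts of each library, in percent, taken by 9 of the 10 genes with the highest mean share, with a point per library. DNMT1 stands between 17.8% and 19.0%, and every other gene drawn is under 5% in each library.

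DNMT3B, a de novo enzyme, was counted 12065 times in control library 1 and 8030 times in control library 2, against 10953 times in SIRT6-inhibited library 1 and 17493 times in SIRT6-inhibited library 2. Its shares were 0.260% (95% Wilson interval 0.255% to 0.264%) and 0.236% (0.231% to 0.241%) for control, against 0.338% (0.332% to 0.345%) and 0.352% (0.347% to 0.357%) for SIRT6-inhibited oocytes. Both SIRT6-inhibited libraries were above both control libraries, and the groups did not overlap. Ordered by counts within a library, DNMT3B stood at positions 57 and 64 for control and at 36 and 35 for SIRT6-inhibited oocytes.

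In normalized CPM, DNMT3B had 2605 and 2261 for control, against 3403 and 3643 for SIRT6-inhibited oocytes. The higher library exceeded the lower by 1.15-fold within the control group and by 1.07-fold within the SIRT6-inhibited group, while a SIRT6-inhibited library exceeded a control library by between 1.31-fold and 1.61-fold. Group means were 2433 ± 244 (SD, n = 2) normalized CPM for control and 3523 ± 170 (SD, n = 2) for SIRT6-inhibited oocytes, and the log2 fold change was 0.53 with a standard error of 0.11. These folds and this error describe a gene chosen with its counts known and test nothing. On the TMM scale 2 of the 3 DNMT genes were higher in both SIRT6-inhibited libraries, a pattern shared by 17.9% of all tested genes and given only for comparison. In shares of counts it held for 1 of the 3, against 14.8% of all tested genes.

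The ratio of DNMT3B to DNMT1 within a library does not depend on the total or on its scaling. Per 100 DNMT1 counts there were 1.46 and 1.25 DNMT3B counts for control, against 1.78 and 1.88 for SIRT6-inhibited oocytes. On the log2 scale the ratio was -6.10 and -6.32 for control, against -5.81 and -5.74 for SIRT6-inhibited oocytes. Both SIRT6-inhibited libraries had more DNMT3B for each DNMT1 count than both control libraries. The means were -6.21 ± 0.16 and -5.77 ± 0.05 (SD, n = 2 each), which differed by 0.44.

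The ratio was then taken to each of these 9 most counted genes, DNMT1 included, a comparison chosen after the values of DNMT3B were seen. The group means of the ratio differed by between 0.30 and 0.54 on the log2 scale. The smallest difference was against WEE2 and the largest against PCNA. Against H1FOO, which had log2 fold change 0.01 and standard error 0.10, DNMT3B had 10.43 and 10.62 counts per 100 for control, against 15.04 and 15.23 for SIRT6-inhibited oocytes. These ratios all hold the same DNMT3B counts, so they restate its difference on another scale and add no independent support.

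**Figure D3:**
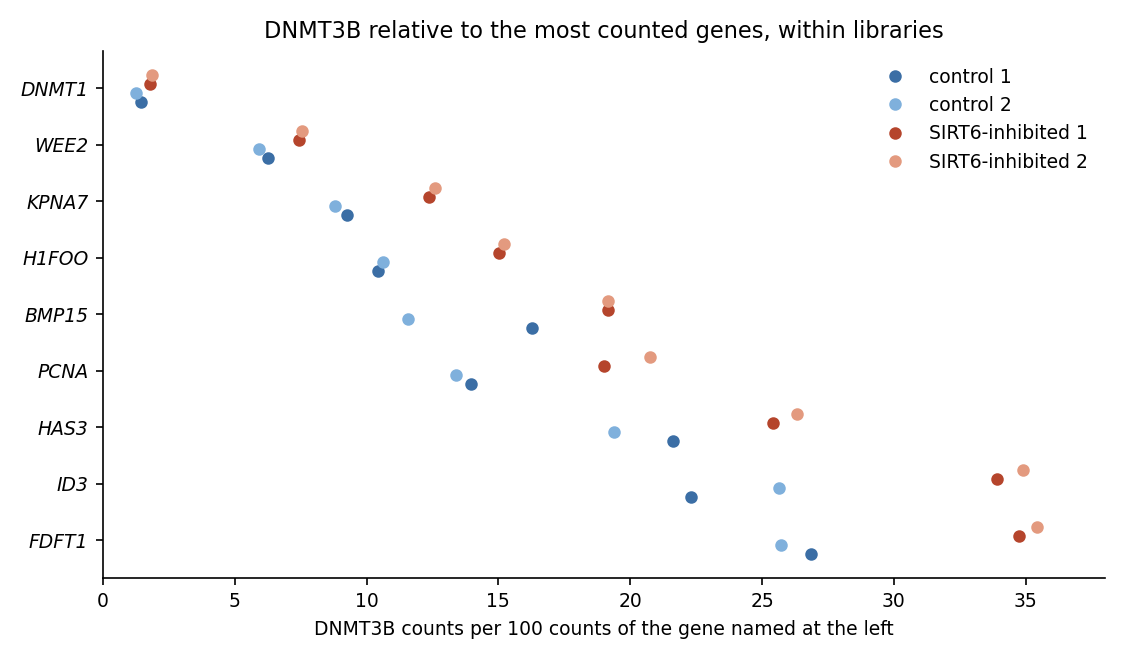
Counts of DNMT3B per 100 counts of each of 9 of the most counted genes in the same library, with a point per library. All rows share the DNMT3B counts, and for DNMT1 the SIRT6-inhibited libraries are at 1.78 and 1.88 and the control libraries at 1.46 and 1.25.

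DNMT3A, the other de novo enzyme, was counted 138 times in control library 1 and 114 times in control library 2, against 104 times in SIRT6-inhibited library 1 and 70 times in SIRT6-inhibited library 2. As counts per 1000000 of the library total (CPM) these were 29.7 CPM (95% Wilson interval 25.1 to 35.1) and 33.5 CPM (27.9 to 40.2) for control, against 32.1 CPM (26.5 to 38.9) and 14.1 CPM (11.1 to 17.8) for SIRT6-inhibited oocytes. SIRT6-inhibited library 2 was low, the other libraries lay within each other's counting intervals, and the groups overlapped. The counts were above the 3 counts under which a transcript could not be told from 0, which is between 0.603 and 0.926 CPM in these libraries.

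Group means of DNMT3A were 30.9 ± 1.62 (SD, n = 2) normalized CPM for control and 23.4 ± 12.5 (SD, n = 2) for SIRT6-inhibited oocytes. The log2 fold change was -0.40 with a standard error of 0.67, a difference within the spread between libraries. It rested on SIRT6-inhibited library 2, since the value was 0.06 without that library and -1.09 without SIRT6-inhibited library 1. Of all counts on the 3 DNMT genes, DNMT3A took between 0.00737% and 0.0175%, DNMT3B between 1.23% and 1.84%, and DNMT1 between 98.2% and 98.7%.

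TRDMT1, formerly called DNMT2, is a methyltransferase of transfer RNA and falls outside the rule on symbols, so it was chosen after its values were seen. It had 87.4 and 114 normalized CPM for control, against 88.9 and 171 for SIRT6-inhibited oocytes. The groups overlapped, and SIRT6-inhibited library 2 was high. DNMT3L, the partner of the de novo enzymes that has no activity of its own, was not analysed here.

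Genes that work with the methyltransferases were read from 5 lists of 90 symbols in all, of which 29 were analysed here and 22 were tested. In edgeR's quasi-likelihood test 1 of the 22, ARID4A, had an unadjusted p-value under 0.05, which is 4.55% of them, and it was lower in SIRT6-inhibited oocytes. Among all tested genes 216 (9.05%) had such a p-value, 73 of them higher and 143 lower in SIRT6-inhibited oocytes. With Benjamini-Hochberg adjustment edgeR's quasi-likelihood test called 0 list genes and 0 of all tested genes (0%), while DESeq2's Wald test called 0 and 37 (1.55%). Before adjustment DESeq2's test gave p under 0.05 to 3 of the 22 list genes and to 237 (9.93%) of all tested genes. The median log2 fold change was -0.08 over the 22 list genes and -0.04 over all tested genes. In normalized CPM 5 of the 22 had both SIRT6-inhibited libraries above, and 6 below, both control libraries, against 17.9% and 22.2% of all tested genes. The 6 include AHCYL1, which passed the filter on low counts through the control libraries alone.

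Leaving out a library changed these counts. The filter was applied anew to the libraries left, so the genes tested differ. Without control library 2 an unadjusted p-value under 0.05 was found for 1 of 24 list genes, USP7 and not ARID4A, and for 111 of 2522 tested genes (4.4%), in place of 216 of 2387. Without control library 1 it was found for 2 of 23 list genes, ARID4A and SUV39H2, and for 148 of 2550 tested genes (5.80%). Without SIRT6-inhibited library 1 it was found for 2 of 24 list genes, DMAP1 and MAT2A, and for 302 of 2586 tested genes (11.7%). Without SIRT6-inhibited library 2 it was found for 2 of 22 list genes, ARID4A and ZBTB38, and for 282 of 2561 tested genes (11.0%). DMAP1 and SUV39H2 are named here after their values were seen, and DMAP1 and ZBTB38 had 0 counts in the SIRT6-inhibited library that was left. After Benjamini-Hochberg adjustment edgeR's quasi-likelihood test called 77 genes (2.98%) without SIRT6-inhibited library 1, 25 (0.976%) without SIRT6-inhibited library 2 and 1 (0.0397%) without control library 2.

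Maintenance partners bring DNMT1 to replicated DNA or set its stability, and 5 of the 12 on the list were analysed and tested. PCNA, the replication clamp that DNMT1 binds, had 18669 and 16889 normalized CPM for control, against 17911 and 17564 for SIRT6-inhibited oocytes. The SIRT6-inhibited libraries lay between the control libraries, and the log2 fold change was -0.0033 with a standard error of 0.09, with a sign that changed with the scaling. USP7, a deubiquitinase that binds DNMT1, had 2305 and 2498 normalized CPM for control, against 2729 and 2960 for SIRT6-inhibited oocytes. Both SIRT6-inhibited libraries were higher, with log2 fold change 0.24 and standard error 0.11 (edgeR's quasi-likelihood test, Benjamini-Hochberg adjusted p = 0.568). Of this list 0 genes had an unadjusted p-value under 0.05 in that test, and 1 did, USP7, in DESeq2's, against 9.05% and 9.93% of all tested genes. RB1, the retinoblastoma protein, was likewise higher in both SIRT6-inhibited libraries (log2 fold change 0.26, standard error 0.17). KAT5, an acetyltransferase, was lower in both in normalized CPM, with 10.4 and 4.22 for control against 0 and 3.33. In shares of counts KAT5 was also lower in both, with log2 fold change -2.09 and standard error 2.22. Its unscaled counts, from libraries of unequal total, were few, with 48 and 15 for control against 0 and 16. RB1 and KAT5 are named after their values were seen. UHRF1, which guides DNMT1 to hemimethylated DNA, was not analysed here.

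Partners of de novo methylation and of the protection of imprints were represented by 7 of 22 listed genes, of which 5 were tested. Before adjustment 1 of these 5 passed 0.05 in edgeR's test, ARID4A, and 2 did in DESeq2's, ARID4A and EHMT2, against 9.05% and 9.93% of all tested genes. ARID4A, a chromatin protein that takes part in imprint control, had 569 and 669 normalized CPM for control, against 402 and 487 for SIRT6-inhibited oocytes. Both SIRT6-inhibited libraries were lower, with log2 fold change -0.48 and standard error 0.16 (edgeR's quasi-likelihood test, Benjamini-Hochberg adjusted p = 0.496). The log2 fold change of ARID4A was -0.36 without control library 2 and -0.35 without SIRT6-inhibited library 1. It was -0.60 without control library 1 and -0.62 without SIRT6-inhibited library 2. EHMT2, a methyltransferase of histone H3, had 1708 and 1711 normalized CPM for control, against 1962 and 2070 for SIRT6-inhibited oocytes. The groups did not overlap, and the log2 fold change was 0.24 with a standard error of 0.10 (edgeR's quasi-likelihood test, Benjamini-Hochberg adjusted p = 0.564). SUV39H2, a histone methyltransferase named after its values were seen, was lower in both SIRT6-inhibited libraries, with log2 fold change -0.66 and standard error 0.31, and -0.35 without control library 2. KDM1A, a histone demethylase, had group means of 752 ± 120 and 812 ± 128 normalized CPM (SD, n = 2 each), which differed by less than the spread between libraries. DPPA3, which shields the maternal genome from demethylation, was not analysed here.

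Active demethylation was represented by 5 of 18 listed genes, of which 4 were tested. Of these 4, 0 passed an unadjusted threshold of 0.05 in edgeR's quasi-likelihood test or in DESeq2's, against 9.05% and 9.93% of all tested genes. TET1, which oxidizes methylcytosine, had 85 and 29 counts for control, against 30 and 101 for SIRT6-inhibited oocytes. The groups overlapped, and the libraries of each group differed more from each other than the group means did. APEX1, an endonuclease of base excision repair, had group means of 102 ± 22.2 in control and 82.0 ± 9.21 normalized CPM in the inhibited group (SD, n = 2 each). The groups of APEX1 overlapped in normalized CPM, while in shares of counts both SIRT6-inhibited libraries were lower. Its log2 fold change of -0.31 (standard error 0.31) was -0.075 without control library 1 and -0.52 without control library 2. OGT, which binds TET proteins, had 21.8 ± 2.51 and 33.4 ± 4.61 normalized CPM (SD, n = 2 each), with both SIRT6-inhibited libraries higher, and the log2 fold change was 0.62, standard error 0.60. GADD45A, a stress-induced gene linked to demethylation and named after its values were seen, was lower in both SIRT6-inhibited libraries, with 25.7 and 16.9 normalized CPM for control against 11.5 and 8.54 (log2 fold change -1.09, standard error 0.88). TET2 and TET3 were not analysed here.

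Readers of methylated or unmethylated CpG sites were represented by 2 of 14 listed genes. KDM2A, a demethylase that binds unmethylated CpG sites, had 126 and 77 counts for control, against 115 and 159 for SIRT6-inhibited oocytes. ZBTB38, which binds methylated DNA, had 15 and 69 counts for control, against 0 and 24 for SIRT6-inhibited oocytes. In normalized CPM the SIRT6-inhibited libraries were both higher for KDM2A, while the groups overlapped for ZBTB38. Of these 2, 0 passed an unadjusted threshold of 0.05 in edgeR's quasi-likelihood test or in DESeq2's, against 9.05% and 9.93% of all tested genes. ZBTB38 did so in edgeR's test without SIRT6-inhibited library 2.

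The methyl donor cycle, which supplies S-adenosylmethionine to the methyltransferases, was represented by 10 of 24 listed genes, of which 6 were tested. Of these 6, 0 passed an unadjusted threshold of 0.05 in edgeR's quasi-likelihood test or in DESeq2's, against 9.05% and 9.93% of all tested genes. MAT2A, which makes S-adenosylmethionine, had 91.5 and 135 normalized CPM for control, against 141 and 59.4 for SIRT6-inhibited oocytes. AHCY, which clears the by-product of methylation, had 102 and 165 normalized CPM for control, against 127 and 113 for SIRT6-inhibited oocytes. The groups overlapped for MAT2A and AHCY. In normalized CPM 2 of the 6 tested genes, named after their values were seen, were lower in both SIRT6-inhibited libraries, against 22.2% of all tested genes. MAT2B, the regulatory subunit for MAT2A, had 48.1 and 27.0 normalized CPM for control against 20.2 and 15.6, with log2 fold change -1.07 and standard error 0.64, and -0.60 without control library 1. AHCYL1, a relative of AHCY, had 7.13 and 2.53 normalized CPM for control against 0 and 1.87. Its unscaled counts were 33 and 9 against 0 and 9, from libraries of unequal total. In shares of counts AHCYL1 was also lower in both SIRT6-inhibited libraries. AHCYL1 passed the filter on low counts through the control libraries alone, so no conclusion is drawn from its lower level. MAT2A passed that threshold in edgeR's test without SIRT6-inhibited library 1, at a log2 fold change of -0.94, and was at 0.32 without SIRT6-inhibited library 2. TYMS, which makes thymidylate and draws on the same folate pool, had 4005 ± 324 and 4293 ± 333 normalized CPM (SD, n = 2 each), a difference smaller than the spread between libraries. MAT1A, BHMT, BHMT2 and GNMT, genes of the cycle known for their expression in liver, had between 0 and 16 counts in any library and were not tested.

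**Figure D4:**
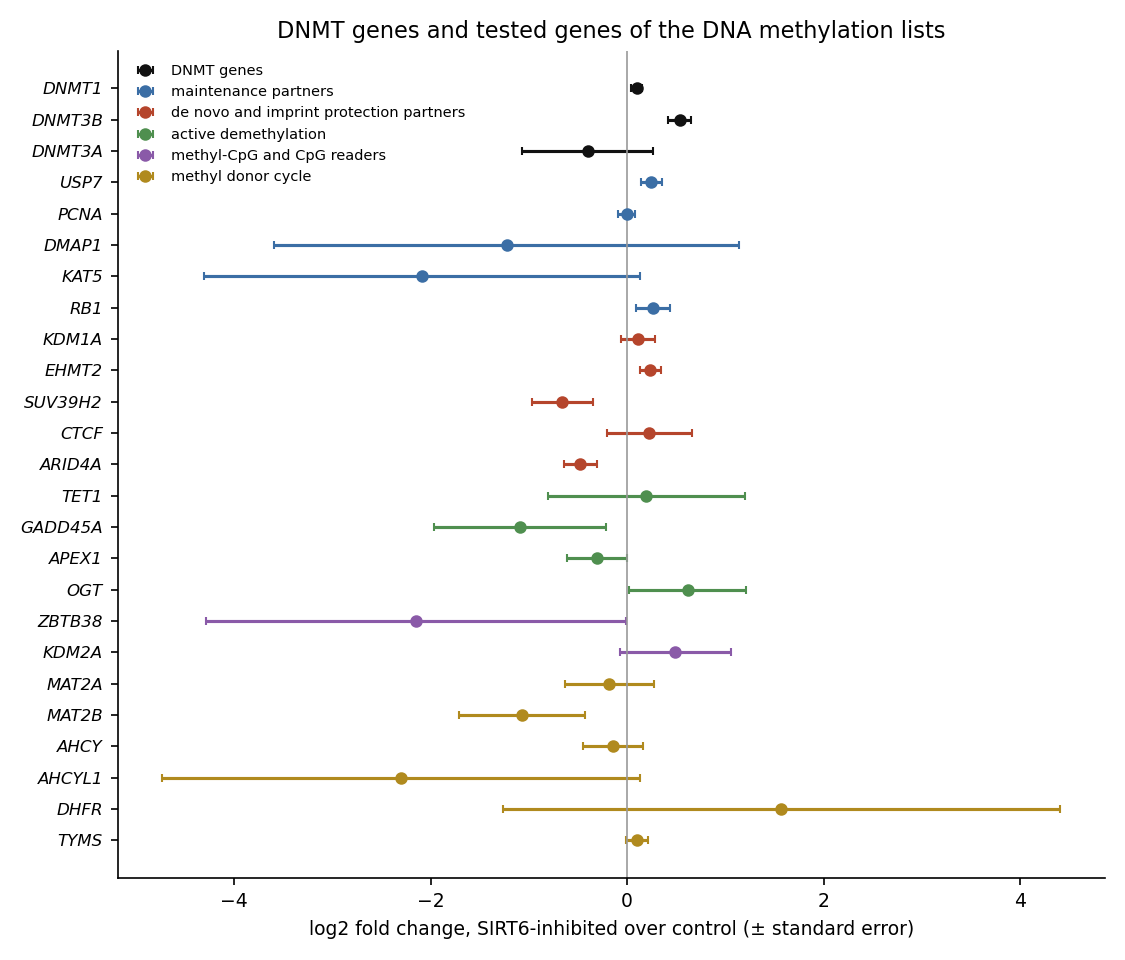
Log2 fold change of SIRT6-inhibited over control oocytes for the 3 DNMT genes and the 22 tested genes of the 5 DNA methylation lists, with bars for the standard error of edgeR's fit and a line at 0. DNMT3B is at 0.53 and ARID4A at -0.48, and genes with few counts such as ZBTB38 have standard errors above 2.

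The genes nearest to each DNMT gene were found among the 882 tested genes with a mean of at least 100 normalized CPM, by the Euclidean distance between log2 normalized CPM over the 4 libraries after the mean of each gene was taken off. Nearest to DNMT3B were TICAM1, an adaptor of Toll-like receptors, at a distance of 0.06, DCTN4, a dynactin subunit, at 0.08, PKMYT1, a kinase that restrains CDK1, at 0.09, LAT2, a membrane adaptor, at 0.09, and IGF2R, the receptor that clears insulin-like growth factor II, at 0.11. These genes were low in control library 2, somewhat higher in control library 1 and high in both SIRT6-inhibited libraries, with log2 fold changes between 0.49 and 0.58.

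Nearest to DNMT1 were FYN, a kinase of the Src family, PLAGL1, a zinc finger factor, FBXO21, an F-box protein, BLM, a DNA helicase, and PRDX2, a peroxiredoxin, at distances between 0.05 and 0.06. Like DNMT1 they varied little, with log2 fold changes between 0.06 and 0.15. Nearest to DNMT3A were DPH3, GPX3, C2H11orf58, MAT2A and CTSK, at distances between 0.32 and 0.41. All 5 were lowest in SIRT6-inhibited library 2, as DNMT3A was. With 4 libraries many genes can share a pattern, and these distances carry no test.

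**Figure D5:**
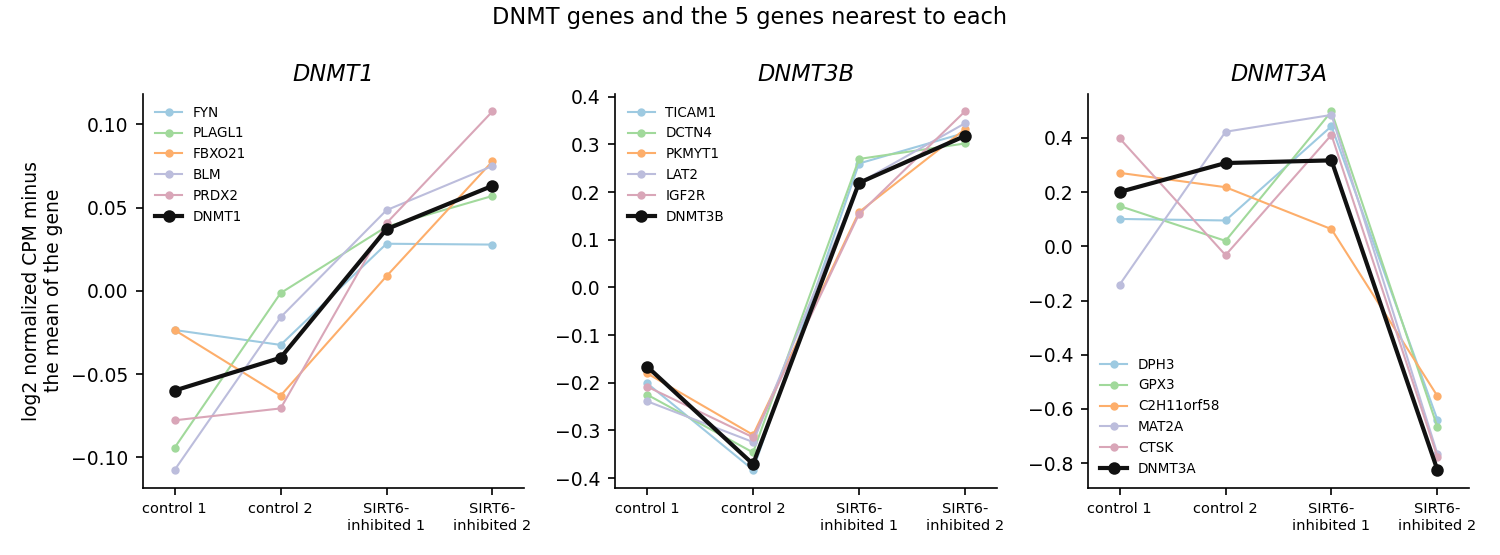
Log2 normalized CPM minus the mean of the gene in each of the 4 libraries, for each DNMT gene (black) and the 5 genes nearest to it, on a vertical axis of its own in each panel. Lines only link the values of a gene, and DNMT3A with its neighbours is lowest in SIRT6-inhibited library 2.

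The labelled cell type was checked against marker genes. Of 19 oocyte markers 13 were analysed here, and 13 had at least 3 counts in each library. Their summed level was 78171 and 83376.5 CPM for control, against 77188 and 76283 CPM for SIRT6-inhibited oocytes, with KPNA7 the most abundant in each library. Of the 13, 2 were lower in both SIRT6-inhibited libraries and reached p under 0.05 before adjustment in edgeR's quasi-likelihood test, GDF9 (log2 fold change -1.65, standard error 0.50) and ZP2 (-0.37, standard error 0.14), against 9.05% of all tested genes in either direction. Their Benjamini-Hochberg adjusted p-values in edgeR's quasi-likelihood test were 0.469 and 0.510. The part of this difference in the values of the DNMT genes was not tested.

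Of 22 markers of cumulus and granulosa cells 18 were analysed here, and they summed to 277 and 282 CPM for control, against 162 and 293 CPM for SIRT6-inhibited oocytes. KITLG had the most counts of these in library 1 of each group and VCAN in library 2 of each group. The sum was lowest in SIRT6-inhibited library 1, and the groups overlapped. Of the 8 tested markers 6 had a negative log2 fold change, against 1261 of all 2387 tested genes. In normalized CPM INHBA and PTGS2 were lower and CYP11A1 was higher in both SIRT6-inhibited libraries, named after their values were seen. Among all tested genes 22.2% were lower and 17.9% higher in both. PTGS2 passed the filter on low counts through the control libraries alone. CYP11A1 had few counts, 0 and 9 for control against 13 and 56, with log2 fold change 2.62 and standard error 2.29. For INHBA the log2 fold change was -0.60 with a standard error of 0.63. FSHR, LHCGR, TNFAIP6, AMH and AMHR2 had 0 counts in all 4 libraries, which allows up to 0.603 to 0.926 CPM in a library. Of 6 blood cell markers 4 were analysed here, and their counts were 0 except for 4 counts of CD68 in control library 2.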

How the data were processed

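The authors deposited whole-number read counts per gene symbol for 4 libraries of 150-bp paired-end reads. The submitters' processing notes list TopHat2 2.0.13, Cufflinks 2.2.1, Cuffnorm and Cuffdiff and the builds susScr11 and mm10, with no role. The annotation, counting tool and strand setting are not given in the sources used here. The labels name Smart-seq2 amplification ahead of a random-primed NEBNext library kit, while the study's methods give RNeasy extraction and that kit without mention of the amplification. Of the 4381 symbols 4296 matched a RefSeq symbol of Sscrofa11.1, and 91.8% of those had a curated transcript, against 0.22% of protein-coding RefSeq genes outside the table. Of the 61 list genes not analysed here, 0 had one.

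Genes were kept by filterByExpr (minimum count 10, minimum total 15) and compared with edgeR 4.0.16 (TMM, quasi-likelihood test, Benjamini-Hochberg adjustment over all tested genes) in R 4.3.3. Standard errors were taken as the absolute log2 fold change over the root of edgeR's F. An exact permutation test of 2 against 2 libraries cannot go below p = 0.333 and was not used. Wilson intervals are at 95%.

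The members and lists were chosen with earlier results of these data known. Named are the DNMT genes, UHRF1, TET1, TET2, TET3, DPPA3, MAT2A and AHCY, list genes with an unadjusted p-value under 0.05, the 2 tested genes of each list with the highest mean CPM, the 10 genes with the highest mean share, the 5 genes nearest in pattern to each DNMT gene (prior count 0.5, mean of at least 100 CPM), and markers of oocytes, cumulus and blood cells. The result of 1 gene named by this rule is not reported here. Alternatives were RLE and upper-quartile scaling, library totals only, leaving out DNMT1 or the 10 most counted genes, other filters on low counts, DESeq2 1.42.0, the replicate number as a block, each library left out, and other denominators of the shares. A block with crossed numbers and leaving out RN18S were added after seeing the data.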

Additional observations from a re-analysis of the deposited data

How the results depend on the processing

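DNMT3B kept a positive log2 fold change in 15 of 15 alternatives, between 0.43 and 0.63, and its log2 ratio to DNMT1 differed by 0.32 to 0.55 with each library left out. DNMT1 stayed positive in 13 of 13, at 0.12 with RLE scaling, 0.041 with library totals only, 0.12 in DESeq2's fit and 0.082 to 0.11 with each library left out, while the difference in its mean share went from -0.00036 to 0.085. DNMT3A ranged from -1.09 to 0.061 with each library left out, and its mean share from -1.17 to 0.024. List genes with an unadjusted p-value under 0.05 numbered 3 (ARID4A, EHMT2 and USP7) with RLE scaling, with upper-quartile scaling and in DESeq2's test, where 216, 226 and 237 of all 2387 tested genes had one, and 1 to 2 with each library left out. Over all tested genes that count was 111 to 302, or 4.4% to 11.7%, with each library left out. Adjusted calls numbered 43 with no filter on low counts, 2 with at least 10 counts in every library, 37 in DESeq2's test and 0 to 77 with each library left out. The cause of these shifts was not tested. In a fit over 3 libraries the lone library is assumed to vary like the other group. PCNA was 0.016 with RLE scaling, 0.0078 with upper-quartile scaling, 0.00061 with at least 10 counts in every library, 0.016 in DESeq2's fit and -0.078 to 0.062 with each library left out. With each library left out TET1 ranged from -0.51 to 0.88, MAT2A from -0.94 to 0.32, AHCY from -0.46 to 0.24, KDM1A from -0.063 to 0.27, APEX1 from -0.52 to -0.075, TYMS from 0.015 to 0.18, GADD45A from -1.36 to -0.76, MAT2B from -1.43 to -0.60, RB1 from 0.22 to 0.30 and SUV39H2 from -0.93 to -0.35. Same-numbered libraries share only a number, and their deviations from the group means had a correlation of -0.108 across genes, which are not independent replicates. With the replicate block there were 6 adjusted and 176 unadjusted calls, and 1 list gene had an unadjusted p-value under 0.05. With the numbers crossed as a block, a pairing chosen after seeing the data, there were 2 adjusted and 241 unadjusted calls. Crossing joined the libraries closest in total counts. Control library 1 (4646129) went with SIRT6-inhibited library 2 (4972602), and control library 2 (3405960) with SIRT6-inhibited library 1 (3239200). The part of depth in these calls was not tested. Leaving out RN18S, also chosen after seeing the data, moved no log2 fold change of a DNMT gene by more than the spread between libraries. For DNMT3A the SIRT6-inhibited libraries, at 32.1 and 14.1 CPM, had counting intervals that did not meet (26.5 to 38.9 and 11.1 to 17.8).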
